A study of Mus musculus with 13 samples.

Results

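The lungs of wildtype (WT) mice examined 14 days after bleomycin were compared with those of control mice across all measured genes. Of the 13 lung RNA libraries in the series, the 9 used here were those labelled as WT bleomycin (mice 4, 2, 5, 4-B2 and 7) and as control (mice 3, 21, 24 and 26), as their labels give treatment and genotype. All were male C57BL/6J mice, 13 weeks old when obtained, as the study's methods give them, and none carried an engineered allele or transgene. Their age at collection is not stated there. The WT bleomycin mice had taken a single dose of bleomycin, 1 U per kg, through the oropharynx. By the study's methods, control groups were given the vehicle, sterile saline. The labels give no day of collection for the control mice. The other 4 libraries came from CB1R KO mice, which lack Cnr1, the gene of cannabinoid receptor 1, and which had also taken bleomycin. They entered the count filter, the scaling and the shared estimate of the spread between mice, but not the contrast itself. CB1R KO library 11 was much deeper, at 53463884 estimated counts, than the other CB1R KO libraries, at 15252571 to 16605421. The same test on the 9 libraries alone called 7500 genes, against 7492 with all 13. Values per mouse are listed in the order 3, 21, 24, 26 for control and 4, 2, 5, 4-B2, 7 for WT bleomycin. The labels differ in spelling, lower-case for 3, 21, 24, 4, 2 and 5 and with capitals for 26, 4-B2 and 7. The labels of 4 and 4-B2 share a number, and what B2 stands for is not given in the sources used here, so that each library comes from a different mouse is an assumption. Without library 4 the comparison below called 7154 genes, and without 4-B2 it called 6951.

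Bleomycin is a glycopeptide drug that breaks DNA, and a single dose into the airways of a mouse injures the alveolar epithelium and the capillaries. Inflammation comes first, followed by a fibroproliferative phase in which fibroblasts lay down collagen, elastin and fibronectin, and macrophages recruited from blood monocytes gather around the scars. The model is widely used because these steps resemble parts of human pulmonary fibrosis, although the lesions in mice are patchy and can resolve.

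RNA was taken from the lower right lobe and enriched for polyadenylated molecules. The authors quantified protein-coding transcripts with kallisto, which matches reads to transcripts with no genome alignment, and deposited estimated counts and TPM (a level corrected for transcript length and scaled to a fixed total) for 20270 genes. The 9 libraries held between 14615904 and 16662580 estimated counts. Counts were scaled here to CPM, counts scaled to a library of fixed size with TMM factors, which compares 1 gene between mice, and TPM was used where genes were compared with each other. The lung markers Sftpc, of type II alveolar cells, Scgb1a1, of airway club cells, and Ager, of type I alveolar cells, had mean TPM of 27907, 85187 and 2211 in the control libraries. In whole-lobe RNA, fewer cells of a type and less RNA per cell cannot be told apart, which holds for every marker below.

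The response to bleomycin was broad. Of 15315 genes that passed the count filter, 7492 (48.9%) differed at an adjusted p under 0.05: 3834 (25.0%) rose and 3658 (23.9%) fell. Each count in the gene lists below is to be read beside these shares. The called share was under 48.9% for ciliated (21.7%), ion and water transport (31.6%), adipocyte (38.5%), plasma cell (37.5%) and mast cell (42.9%) lists. It was also under that for ribosomal (38.3%), mitochondrially encoded (7.69%), amino acid and fatty acid breakdown (41.7%) and lipid synthesis lists (46.4%). The rises were the larger changes: 1080 genes rose and 676 fell at least 2-fold, and 117 rose and 13 fell at least 8-fold. Among the genes that rose, 51.1% changed by less than 1.5-fold, and so did 56.8% of those that fell. The level in all 5 treated mice lay outside the range of the 4 controls for 6168 genes (40.3% of those tested), 3293 above it and 2875 below it. The median log2 fold change over all genes was -0.008, against a median standard error of 0.11. Calls varied with level: with genes cut into 4 equal bins by mean CPM, 38.1% were called in the lowest bin, with a median standard error of 0.28, and 60.9% in the highest, with 0.07.

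**Figure D1:**
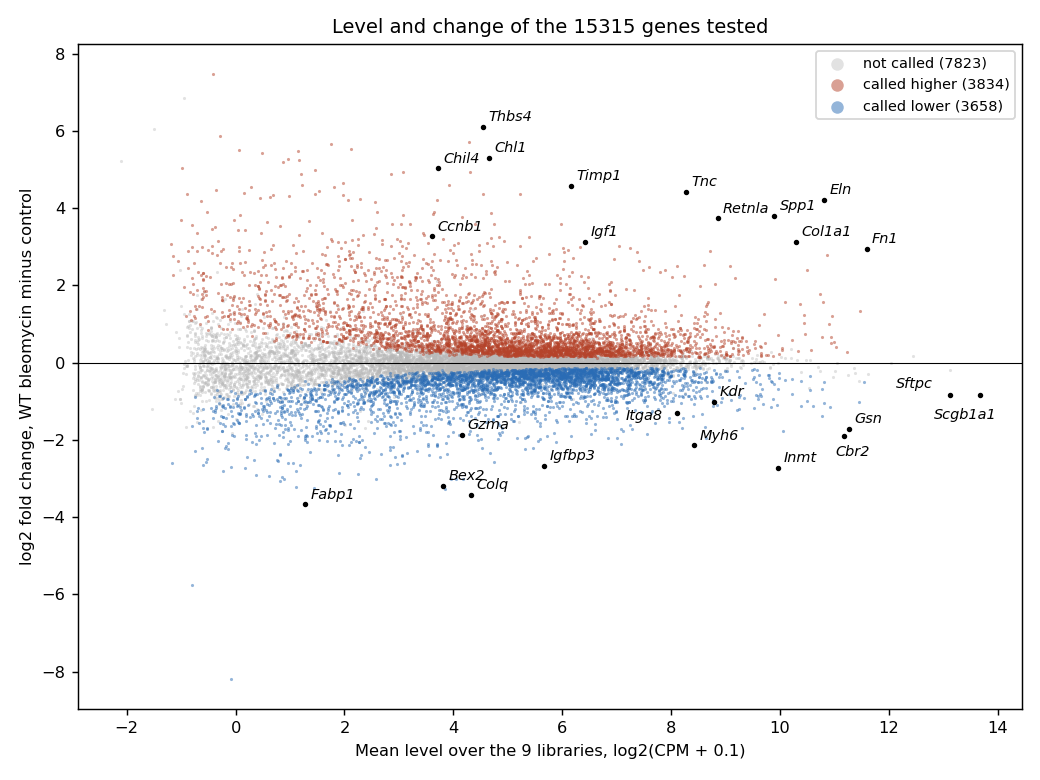
Each point is 1 of the 15315 genes tested, with its mean level over the 9 libraries, log2(CPM + 0.1), on the horizontal axis and its log2 fold change, WT bleomycin minus control, on the vertical axis; red and blue mark genes called higher (3834) and lower (3658). Matrix and macrophage genes such as Thbs4, Tnc, Eln, Fn1 and Spp1 sit far above 0, while Inmt, Igfbp3 and Colq sit far below it and the 2 most abundant labelled genes, Scgb1a1 and Sftpc, lie just under -0.8.

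The libraries separated by treatment. The first principal component of log2 CPM carried 63.4% of the variance, with controls between -55.8 and -41.4 and WT bleomycin mice between 32.5 and 47.8. Pearson's r between 2 libraries across genes was 0.978 to 0.985 among controls, 0.979 to 0.985 among treated mice and 0.927 to 0.953 between the groups. The transcript pool became less concentrated: the 100 most abundant genes made up 39.5% ± 0.746 (SD, n = 4) of summed TPM in control and 33.7% ± 0.759 (SD, n = 5) in WT bleomycin lungs (two-sided exact permutation test, p = 0.0159, the smallest that 4 against 5 allows, adjusted p = 0.0238 over 3 library values). Genes at a TPM of at least 1 numbered 13844 ± 60.2 and 13995 ± 67.9 (SD, n = 4 and 5, exact permutation test, adjusted p = 0.0317).

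The 8 genes with the largest fall in mean TPM took 16.9% ± 1.06 (SD, n = 4) of the summed TPM in controls and 9.07% ± 0.913 (SD, n = 5) after bleomycin. They were Scgb1a1, Sftpc, Cbr2, a carbonyl reductase of club cells, the globin genes Hbb-bs, Hba-a2 and Hba-a1, Inmt, an amine methyltransferase abundant in lung fibroblasts, and Gsn, which encodes the actin-severing protein gelsolin. The mean TPM of Cbr2 was 6287 in control and 1734 in WT bleomycin lungs, and that of Gsn was 2292 and 725. In the opposite direction, the 8 genes with the largest gain held 1.74% ± 0.0969 (SD, n = 4) of the pool in controls and 3.95% ± 0.247 (SD, n = 5) after bleomycin. Mgp, an inhibitor of calcification in matrix, led them, with a mean TPM of 2436 and 8462, followed by Retnla, a product of alternatively activated macrophages, with 205 and 2779. Spp1 (osteopontin), the collagen-binding protein gene Sparc, the lipoprotein gene Apoe, the ferritin genes Ftl1 and Fth1, and Tmsb4x, an actin-binding peptide, made up the rest. The log2 fold change was 1.77 ± 0.13 (SE) for Mgp, 1.35 ± 0.09 for Sparc, 1.57 ± 0.12 for Apoe and 0.66 ± 0.09 for Ftl1, and in each of the 4 all treated mice were above all controls.

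Extracellular matrix genes rose in most of the lists that follow. Collagen chains form the fibrils, networks and basement membranes of the matrix: of 44 genes listed, 39 could be tested, 27 rose and 5 fell, with a median log2 fold change of 1.2. Col1a1, a chain of type I collagen, the main fibril of scar, stood at 303, 284, 209 and 152 CPM in control and at 1450, 2113, 2287, 2037 and 2516 CPM in WT bleomycin mice. Every treated mouse was several times above every control, and the gene rose by 3.13 ± 0.29 on the log2 scale (adjusted p = 1.28e-06). Col3a1, of the fibrils of early scar, was between 290 and 511 CPM in control and between 2442 and 3371 CPM in treated lungs, a rise of 2.80 ± 0.19. The range ran from Col11a1, a minor fibril chain, up by 4.89 ± 0.81 from control levels of at most 0.258 CPM, to Col17a1, a hemidesmosome collagen of epithelium, which fell from 7.41 to 9.09 CPM in controls to 1.42 to 2.91 CPM (log2 fold change -2.05). The summed TPM of the tested chains was 1096 to 1390 in control and 3720 to 4777 in treated lungs.

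The enzymes that modify and join collagen followed in part. In that list 20 of 29 tested genes rose and 4 fell (median 0.57). P4ha3, a prolyl 4-hydroxylase subunit, was at 1.37, 1.74, 1.22 and 1.29 CPM in control and at 16.6, 21.4, 22.3, 23.2 and 22.5 CPM in WT bleomycin mice, and its rise of 3.91 ± 0.24 was the largest in the list. Lox, the lysyl oxidase that starts the cross-links, was between 65.3 and 73.3 CPM in controls and between 294 and 442 CPM after bleomycin (2.41 ± 0.19). Pcolce2, an enhancer of procollagen processing, went the other way, from 303 to 320 CPM to 76.5 to 95 CPM, a log2 fold change of -1.85.

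Matricellular and provisional matrix proteins, which regulate cell adhesion in wounds, included the gene with the largest rise of all those that met the rule for large folds. Thbs4, thrombospondin 4, was near the floor in controls at 0.357, 0.601, 0.32 and 1.1 CPM and reached 26, 47.3, 60.9, 26.7 and 45.2 CPM in treated mice. Its log2 fold change was 6.11 ± 0.40 (adjusted p = 7.64e-08). Tnc, tenascin C, a wound matrix protein almost silent in adult tissue, rose from 15.8 to 37 CPM to 418 to 664 CPM (4.43 ± 0.26). Fn1, fibronectin, was at 623, 691, 596 and 688 CPM in control and at 4052, 5484, 5535, 4516 and 5534 CPM in treated lungs, a difference of 2.95 ± 0.19 on the log2 scale. Of the 32 genes in the list 18 rose and 6 fell (median 0.60), down to Tnxb, tenascin X of loose connective tissue, at -1.55.

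Elastic fibre and proteoglycan genes rose in 19 of 29 tested cases and fell in 5 (median 0.75). Eln, tropoelastin, the core of the fibres that let the lung recoil, was at 236, 175, 106 and 147 CPM in control and at 2243, 3692, 4181, 2722 and 2604 CPM in WT bleomycin mice. Every treated mouse was far above every control, and the log2 fold change was 4.22 ± 0.33. Vcan, the large proteoglycan versican, rose by 2.52 ± 0.19, and Omd, a small leucine-rich proteoglycan, was lowest in the list at -2.05.

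Metalloproteinases, which cut matrix, and their inhibitors rose in 21 of 38 tested genes and fell in 5 (median 0.69). Timp1, an inhibitor, was at 3.27, 9.73, 4.29 and 3.41 CPM in control and at 96, 117, 123, 143 and 145 CPM in treated mice, a rise of 4.58 ± 0.35. Mmp12, the macrophage elastase, was at 3.15, 40.7, 5.19 and 4.25 CPM in control and at 127, 159, 139, 47 and 56.8 CPM after bleomycin (2.98 ± 0.64, adjusted p = 0.0014). Control mouse 21 came close to the lowest treated mouse for Mmp12, and it was also the highest control for Timp1. Mmp10, stromelysin 2, had the largest fold in the list, 5.44 ± 0.62, but from control levels of at most 0.12 CPM, and Mmp9, a gelatinase of neutrophils, had the lowest, -1.82. Integrin and laminin subunits, which anchor cells to matrix, rose in 21 of 37 and fell in 6 (median 0.42). Itga5, of the fibronectin receptor, rose from 68.7 to 83.8 CPM to 149 to 187 CPM, whereas Itga8, an integrin of alveolar fibroblasts, fell from 365 to 463 CPM to 118 to 186 CPM. Lama1, a laminin chain of embryonic basement membrane, rose by 4.37 ± 0.49, and Itga2b, the platelet integrin, fell to -1.42.

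Transforming growth factor beta (TGF-beta) is the main signal known to drive fibroblasts to make matrix, and bone morphogenetic proteins (BMPs) often oppose it. In the TGF-beta list 17 of 28 genes rose and 6 fell (median 0.50). The ligand gene Tgfb1 differed little, at 84.2 to 117 CPM in control and 130 to 150 CPM in treated mice (0.47 ± 0.10, adjusted p = 0.00127), with no overlap between the groups. The activin subunit Inhba rose further, from 3.09, 7.15, 2.75 and 4.45 CPM to 31.7, 36.5, 31.2, 42.7 and 39.9 CPM, a log2 fold change of 3.06 ± 0.30. Smad6, an inhibitor of BMP signalling that BMPs themselves induce, was the lowest of that list at -1.28.

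In the BMP list 6 of 25 tested genes rose and 10 fell (median -0.17). The median level over the list, in log2 CPM relative to the control mean, ran from -0.37 to -0.02 in treated mice. Treated mouse 7, at -0.02, lay within the control range of -0.03 to 0.04. The receptor Bmpr2, mutated in heritable pulmonary arterial hypertension, was at 591, 679, 721 and 655 CPM in control and at 357, 330, 309, 344 and 408 CPM in WT bleomycin mice (-0.92 ± 0.11, adjusted p = 1.16e-05). Acvrl1, the endothelial type I receptor ALK1, fell by 0.91 on the log2 scale, from 832 to 927 CPM to 411 to 484 CPM. The secreted BMP inhibitor Grem1 was the highest member, with controls between 0.654 and 1.5 CPM and treated mice between 23.6 and 28.4 CPM (4.60 ± 0.46), and Smad9, a transducer of BMP signals, was the lowest at -1.79.

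Wnt genes went both ways, 13 of 43 up and 14 down. The median was 0.01 and turned negative under 11 of the 20 other settings, so the list as a whole had no direction. Sfrp1, a secreted Wnt inhibitor made by fibroblasts, rose from 22 to 33.8 CPM to 146 to 294 CPM (3.02 ± 0.23), while Wif1, another secreted inhibitor, fell from 5.22 to 5.89 CPM to 2.72 to 3.7 CPM. The ligands Wnt10a, at 5.28 ± 0.54, and Wnt10b, at -1.85 ± 0.16, marked the ends of the list, Wnt10a from control levels of at most 0.178 CPM.

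Among growth factors and their receptors of the IGF, PDGF, EGF, FGF and VEGF families, 12 of 38 rose and 17 fell (median -0.30, and -0.18 without control mouse 3). Igf1, a growth factor made by macrophages and fibroblasts, was at 17.5, 21.5, 13.6 and 11.6 CPM in control and at 118, 168, 146, 141 and 132 CPM in WT bleomycin mice, a rise of 3.13 ± 0.21. Igfbp3, which binds it in the extracellular space, fell by 2.67 on the log2 scale, from 62.1 to 132 CPM to 13.6 to 17 CPM. Vegfa, the endothelial growth factor supplied by the alveolar epithelium, fell from 1105 to 1168 CPM to 743 to 811 CPM (-0.54 ± 0.07). Ereg, an EGF receptor ligand, was the highest of the list at 3.60 ± 0.28. Guidance cues of the semaphorin, ephrin, netrin and slit families were split, 22 of 65 up and 17 down (median 0.08), with Sema3c at -0.91 ± 0.18, Slit2 at 0.49 ± 0.10, Sema6b highest at 1.52 and Ntn5 lowest at -1.58. Receptors and enzymes of vessel tone leaned down, with 12 of 49 up and 22 down (median -0.40). Vipr1, the receptor of vasoactive intestinal peptide, fell by 0.61 on the log2 scale but not past the threshold in mice with lower-case labels (-0.49, adjusted p = 0.0866), Ednrb, the endothelin B receptor, marked the low end at -1.75 and the prostaglandin receptor Ptger3 the high end at 1.81. Edn1, endothelin 1 itself, was between 41.6 and 87.5 CPM in control and between 20.3 and 54.9 CPM in treated mice and did not pass the test (adjusted p = 0.0909).

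**Figure D2:**
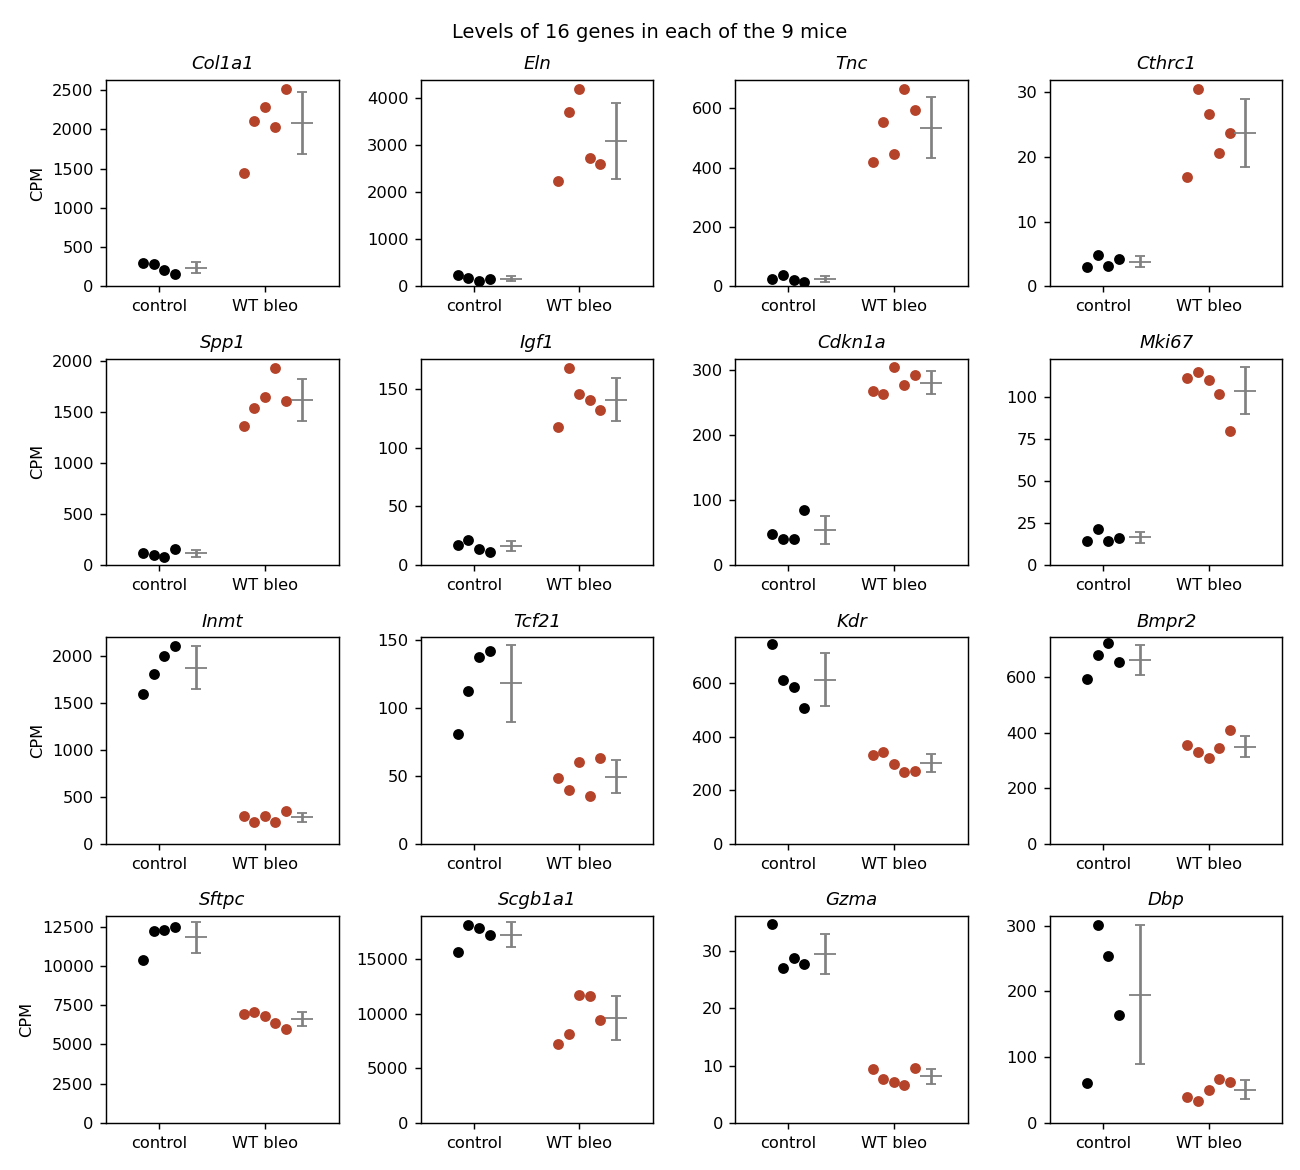
Levels in CPM (vertical axes, from 0) of 16 genes in each of the 4 control (black) and 5 WT bleomycin (red) mice, with the mean and SD of each group in grey. The groups do not overlap in any panel but that of Dbp, in which control mouse 3 at 61.3 CPM lies among treated mice at 33.5 to 67.1 CPM.

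Of the activated fibroblast genes all 13 rose, each without overlap between the groups, with a median log2 fold change of 2.63. Cthrc1, which marks collagen-producing fibroblasts of the fibrotic lung, was at 3.03, 4.81, 3.14 and 4.25 CPM in control and at 16.9, 30.5, 26.6, 20.6 and 23.6 CPM in treated mice (2.63 ± 0.29, adjusted p = 6.1e-06). Fap, fibroblast activation protein, rose by 1.74 ± 0.27 from levels of at most 1.28 CPM. The list ran from Grem1 at 4.60 down to Postn, periostin, at 0.31 ± 0.08, which was already between 365 and 427 CPM in controls and between 459 and 588 CPM in treated lungs.

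Genes of resting alveolar and adventitial fibroblasts went down in 9 of 18 cases and up in 3. Their median was -0.51, and -0.31 without control mouse 26. Tcf21, the transcription factor of lipid-storing alveolar fibroblasts, was at 80.8, 113, 138 and 142 CPM in control and at 48.8, 39.7, 60.1, 35.6 and 63.3 CPM after bleomycin (-1.26 ± 0.22, adjusted p = 0.000307). Inmt fell by 2.72 on the log2 scale, from 1594 to 2108 CPM in controls to 231 to 349 CPM. Slc7a10, an amino acid transporter, was the lowest at -3.02 and Col14a1, a fibril-associated collagen, the highest at 0.99.

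Contractile genes gave no single direction. Of 16 smooth muscle genes 5 rose and 4 fell (median 0.00). Acta2, the smooth muscle actin that myofibroblasts also make, rose by only 0.61 ± 0.14, from 172 to 219 CPM to 232 to 399 CPM, while Myh11, the myosin of mature smooth muscle, fell from 210 to 270 CPM to 110 to 172 CPM (-0.58 ± 0.15). Myh11 did not pass the test in the mice with lower-case labels, 3 against 3 (adjusted p = 0.0702), where no member of the list fell. Actg2, enteric actin, was highest at 1.09 and Pln, phospholamban, lowest at -1.27. Pericyte genes fell in 7 of 14 cases and rose in 4 (median -0.23), with Notch3 at -0.52 ± 0.06, Gucy1a1, a guanylate cyclase subunit, at -0.77 ± 0.12, Rgs5 highest at 0.85 and Gucy1b1 lowest at -0.82. Of 10 tested mesothelial genes 5 fell and 1 rose (median -0.47). That 1 was Msln, mesothelin (0.78 ± 0.17), and Gpm6a was lowest at -0.78. The transcription factor gene Wt1 was between 3.12 and 4.42 CPM in control and between 2.09 and 4.78 CPM in treated mice (adjusted p = 0.729).

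In the epithelium, markers of type II alveolar cells, which make surfactant, differed unevenly: 10 of 18 genes fell and 3 rose (median -0.41), and 9 fell and 1 rose in mice with lower-case labels. Sftpc, surfactant protein C, was at 10352, 12193, 12284 and 12479 CPM in control and at 6933, 7087, 6794, 6371 and 6004 CPM in treated mice (-0.83 ± 0.13, adjusted p = 9.05e-05). Abca3, the lipid transporter of the lamellar body, was between 463 and 658 CPM and between 421 and 531 CPM and did not pass the test (adjusted p = 0.136). The list ended at Ctsh, cathepsin H, up by 1.52 ± 0.15, and at Lyz1, a lysozyme, down to -1.61. Type I alveolar genes were balanced, 6 of 17 up and 6 down, with a median of 0.05 that was -0.03 without treated mouse 4-B2. In mice with lower-case labels 3 rose and 5 fell, and the median was -0.10. Neither Ager (-0.21 ± 0.10, adjusted p = 0.101) nor the water channel gene Aqp5 (0.19 ± 0.09, adjusted p = 0.0881) passed the test, Igfbp2 was highest at 1.04 and Rtkn2 lowest at -0.97. In fits of the 9 libraries alone Ager, at -0.22, did pass (edgeR adjusted p = 0.0208, DESeq2 adjusted p = 0.00565).

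Genes of the transitional state between type II and type I cells, with keratins of basal cells, rose in 15 of 21 cases and fell in none (median 1.07). Krt8, a keratin of that state, was at 155, 181, 179 and 204 CPM in control and at 292, 290, 343, 387 and 337 CPM in treated lungs (0.87 ± 0.10). Cldn4, a tight junction claudin, rose further, from 5.76 to 8.65 CPM to 50 to 98.9 CPM (3.25 ± 0.20, adjusted p = 6.9e-08), and Sprr1a, a cornified envelope protein, was the highest at 3.70 ± 0.34. Perp, a desmosome protein, was the lowest at -0.21 (adjusted p = 0.307).

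Airway genes were mixed. Of 23 ciliated cell genes 5 fell and none rose (median -0.21), while 9 fell without treated mouse 4-B2 and 3 without control mouse 21 or treated mouse 2. The 21.7% of this list that fell was near the 23.9% over all genes tested. The ciliary transcription factor gene Foxj1 (0.13 ± 0.13, adjusted p = 0.439) and the dynein gene Dnah5 (-0.15 ± 0.13, adjusted p = 0.344) did not pass the test, Dnah11 was highest at 0.20 and Tppp3, a tubulin-binding protein, lowest at -1.21. In the secretory list 8 of 20 rose and 6 fell (median 0.47). The groups overlapped in the median level over this list, in log2 CPM relative to the control mean. It was 0.1 in treated mice 4 and 2 and 0.3 in control mouse 26. The list's summed TPM went the other way, from 89374 to 102801 in control to 43491 to 64621 in treated lungs. Scgb1a1, the club cell secretoglobin, was at 15606, 18136, 17862 and 17198 CPM in control and at 7173, 8145, 11682, 11591 and 9428 CPM in treated mice (-0.84 ± 0.13), and Cbr2 was the lowest at -1.90 ± 0.18. Muc5b, the mucin of distal airways, was between 73.2 and 118 CPM in control and between 90.3 and 260 CPM after bleomycin. The groups overlapped, and its log2 fold change of 0.93 ± 0.32 (adjusted p = 0.0255) lost the call in 5 of the 9 fits that left out a mouse, those without control mice 3, 21 or 24 or treated mice 5 or 4-B2. Muc5b also lost the call in mice with lower-case labels (0.84, adjusted p = 0.0809). Chil4, a chitinase-like protein, had the highest fold of the list, 5.04 ± 0.94, and differed widely among the treated mice, at 6.33, 10.9, 55.4, 32.3 and 10.4 CPM. Its copy Chil3 is nearly identical, so the split of reads between the genes is uncertain. Ion and water channels showed 2 of 19 up and 4 down (median -0.04): the sodium channel subunit Scnn1b (-0.09 ± 0.10) and Aqp1 (-0.11 ± 0.06) did not pass the test, and Clcn2 was highest at 0.51 (adjusted p = 0.146). Called members made up 31.6% of that list, against 48.9% of all genes tested. With DESeq2 on the 9 libraries alone Aqp1 passed (-0.12, adjusted p = 0.0275).

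**Figure D3:**
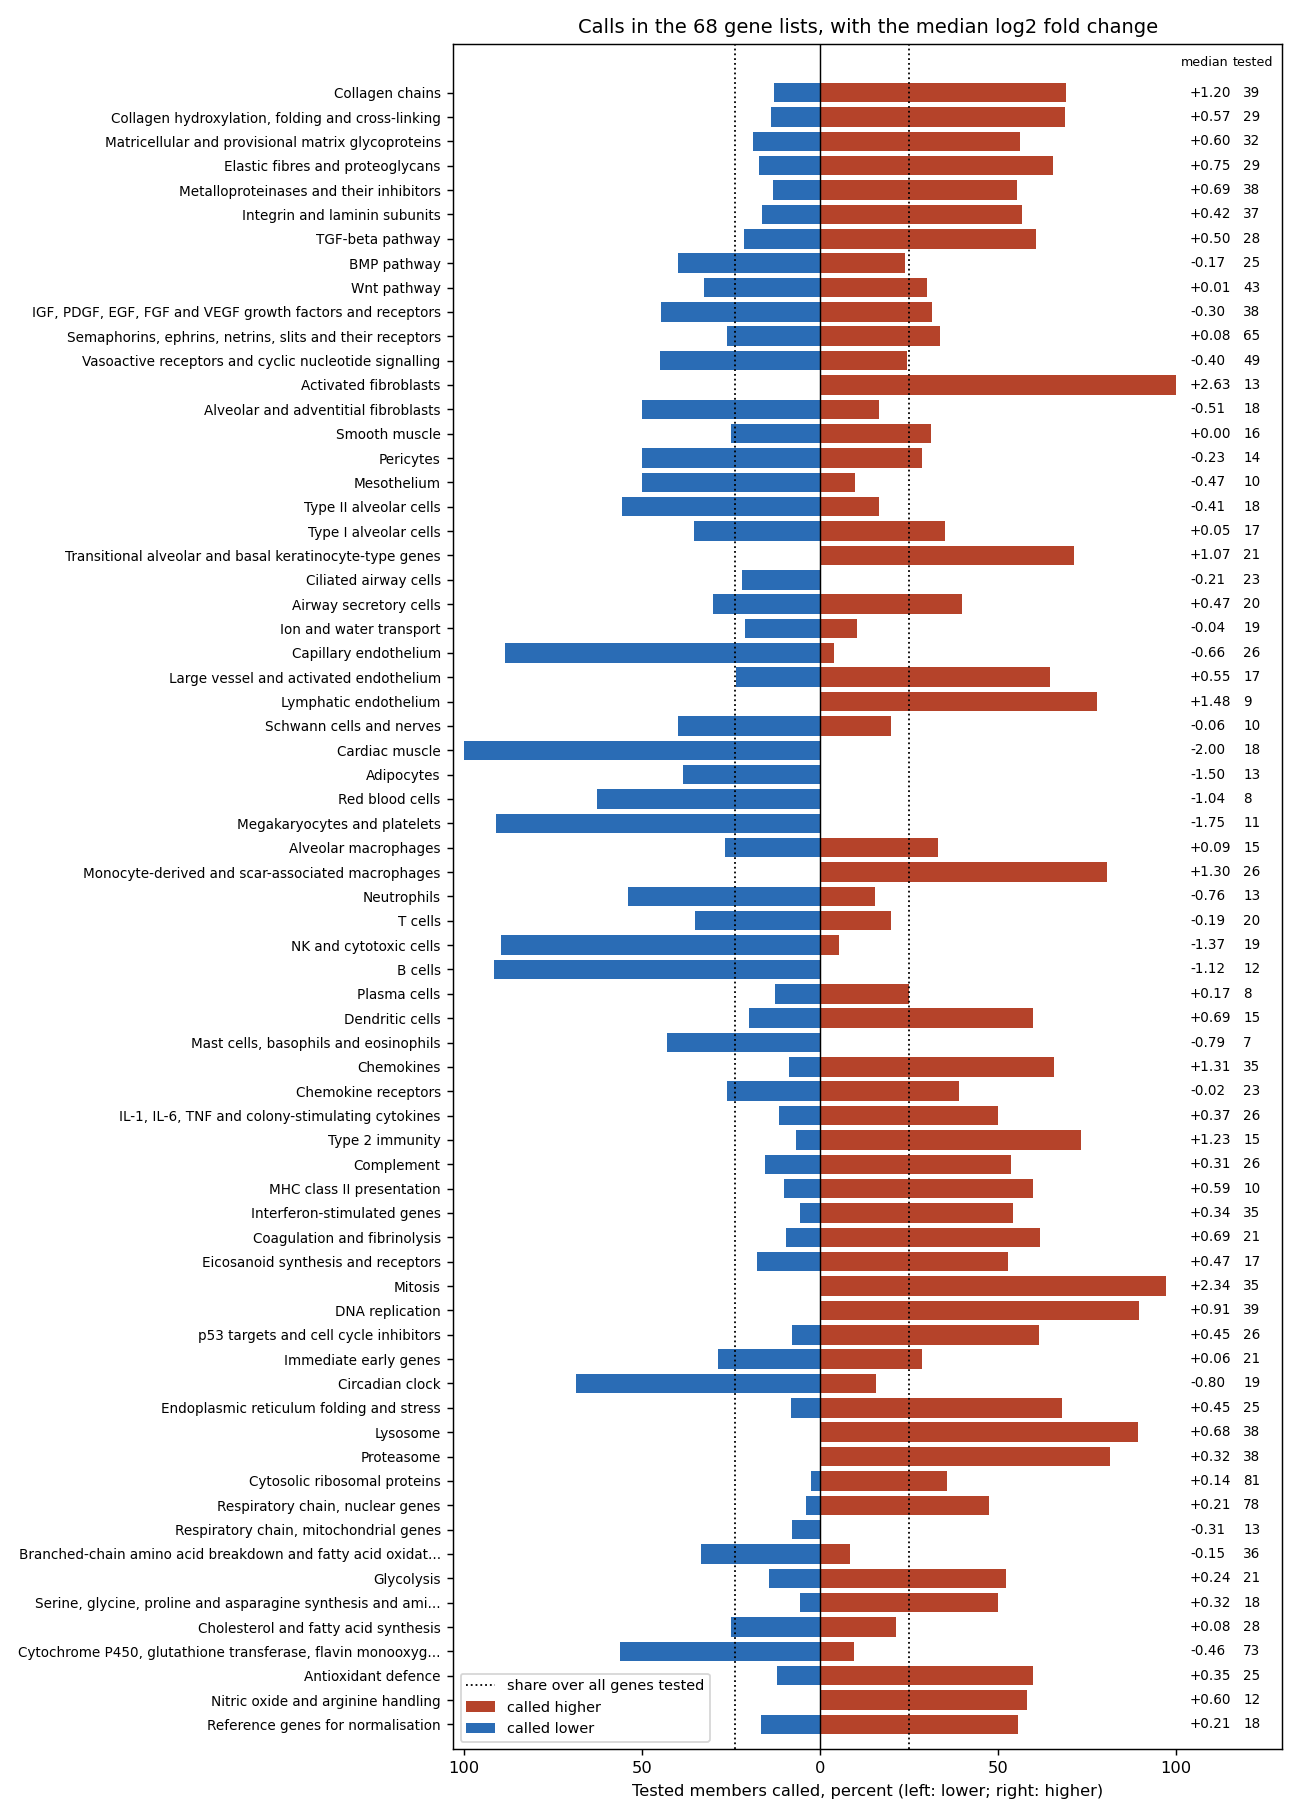
Horizontal bars give the percent of each list's tested members that were called higher (red, to the right) or lower (blue, to the left) in the 68 gene lists; dotted lines mark 25.0% and 23.9%, the shares over all 15315 genes, and the columns at the right give the median log2 fold change and the number tested. Activated fibroblast and mitosis genes reach the far right, cardiac muscle genes the far left, and capillary, NK and B cell genes lie mostly to the left.

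Capillary endothelial genes fell almost throughout: 23 of 26, with a median of -0.66, and 21 of them lay below the control range in every treated mouse. Kdr, the receptor of VEGF, was at 746, 611, 585 and 508 CPM in control and at 332, 343, 299, 268 and 274 CPM in WT bleomycin mice (-1.01 ± 0.13, adjusted p = 1.57e-05). Car4, a carbonic anhydrase of the aerocyte capillary, fell by 0.98 on the log2 scale, from 153 to 176 CPM to 72.3 to 96.5 CPM. Nos3, endothelial nitric oxide synthase, was the only member to rise, from 37, 38.6, 39.6 and 41.8 CPM to 53.8, 53.8, 63.4, 66.9 and 52.7 CPM (0.57 ± 0.11), and Fibin was the lowest at -1.90.

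Genes of large vessels and activated endothelium moved the other way in 11 of 17 cases, and 4 fell (median 0.55). Vwf, von Willebrand factor, rose from 517 to 641 CPM to 778 to 935 CPM (0.55 ± 0.13, adjusted p = 0.00249), and was at 0.42 (adjusted p = 0.0561) in mice with lower-case labels. Ackr1, the atypical chemokine receptor of venules, was at 0.773, 0.421, 0.32 and 0.193 CPM in control and at 8.87, 8.22, 5.37, 12.4 and 6.54 CPM in treated mice, a rise of 4.24 ± 0.51. Slc6a2, the noradrenaline transporter, did not pass the test (0.36 ± 0.16, adjusted p = 0.0724), and Cytl1 was the lowest at -1.97. Lymphatic genes rose in 7 of 9 cases and fell in none (median 1.48). Prox1, the factor that sets lymphatic identity, was at 5.77, 3.91, 4.61 and 5.93 CPM in control and at 15.6, 21.9, 16.4, 19 and 19.2 CPM after bleomycin (1.87 ± 0.27). Nts, neurotensin, was the highest at 4.55 ± 0.52, from control levels of at most 0.129 CPM. Lyve1, which some macrophages share, was the lowest at 0.02 ± 0.31 and turned negative under 6 of the 20 other settings. Its level was 147 to 379 CPM in control and 179 to 440 CPM in treated mice.

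Lists of muscle, fat, blood and nerve cells were also examined. All 18 cardiac muscle genes fell (median -2.0). Myh6, the atrial myosin, which also marks the cardiac sleeve of the pulmonary veins, was at 621, 397, 429 and 969 CPM in control and at 242, 94.5, 178, 50 and 118 CPM in WT bleomycin mice (-2.14 ± 0.38, adjusted p = 0.000311), and Tnnt2, cardiac troponin T, was at -1.38 ± 0.29. The list's summed TPM was 866 to 2255 in control and 166 to 632 in treated lungs, control mice 3 and 26 being the highest, and the ends of the list were Mybpc3 at -1.12 and Ckmt2, a mitochondrial creatine kinase, at -2.63. The part of a different amount of cardiac tissue in these libraries was not tested. In mice with lower-case labels the cardiac median was -1.32 and 15 of the 18 genes fell.

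Adipocyte genes fell in 5 of 13 tested cases and rose in none (median -1.50), but the count was 1, with a median of -0.94, without control mouse 26, 3 without control mouse 3 or without treated mouse 4-B2 or 7, and 9 without treated mouse 4. In mice with lower-case labels none of these genes was called. Adipoq, adiponectin, was at 12.2, 3.55, 2.24 and 15.3 CPM in control and at 7.28, 3.27, 1.56, 1.25 and 1.3 CPM in treated mice (adjusted p = 0.0737). Control mice 3 and 26 were again the highest, Adig was the top of the list at 0.07 and Thrsp the bottom at -2.37, and Ucp1, of brown fat, was too low to test, with no library above a TPM of 0.365. Red cell genes fell in 5 of 8 cases and rose in none (median -1.04). Hbb-bs, a beta globin, was at 2240, 2820, 2403 and 2591 CPM in control and at 1433, 1160, 1320, 987 and 1221 CPM in treated mice (-1.04 ± 0.16). Alas2, which starts haem synthesis in red cells, was the lowest at -1.12 ± 0.15 and Bpgm the highest at 0.12 (adjusted p = 0.408). Near-identical globin copies share reads, so their single values are uncertain while their sum is not. Platelet and megakaryocyte genes fell in 10 of 11 cases (median -1.75): Gp9, of the von Willebrand factor receptor, fell from 1.99 to 5.29 CPM to 0.618 to 1.39 CPM (-1.91 ± 0.29), and Pf4, platelet factor 4, did not pass the test (-0.31 ± 0.19, adjusted p = 0.195). Schwann cell and nerve genes were split, 2 of 10 up and 4 down (median -0.06, and -0.23 without treated mouse 2, -0.18 in mice with lower-case labels and 0.06 with at least 10 counts in every library), with S100b highest at 1.91 and Cdh19 lowest at -1.69.

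The lists of macrophage genes differed from each other. Of the 26 genes of monocyte-derived and scar-associated macrophages, 21 rose, each without overlap between the groups, and none fell (median 1.30). Spp1, which marks macrophages around fibrotic lesions, was at 115, 103, 83.3 and 161 CPM in control and at 1362, 1536, 1646, 1929 and 1608 CPM in treated mice. Its log2 fold change of 3.81 ± 0.20 had an adjusted p of 2.2e-08. Gpnmb, a glycoprotein of lipid-laden macrophages, rose from 20.6 to 38.6 CPM to 109 to 150 CPM (2.25 ± 0.20). Ly6c2, of circulating monocytes, was the lowest at -0.30 (adjusted p = 0.352). Genes of resident alveolar macrophages were balanced, 5 of 15 up and 4 down (median 0.09, 0.28 without control mouse 21 and -0.01 without control mouse 26). Siglecf was between 12.3 and 16.7 CPM in control and between 7.65 and 16.5 CPM in treated mice (adjusted p = 0.27). Marco, a scavenger receptor, was at 9.03, 25.7, 5.06 and 9.47 CPM and at 19.1, 64.9, 11.1, 18.1 and 5.18 CPM (adjusted p = 0.237), with mouse 21 highest among the controls and mouse 2 far above the other treated mice. The integrin gene Itgax was the top at 1.14 and Fabp1, a fatty acid binding protein, the bottom at -3.67 ± 0.29.

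Genes of cytotoxic and B lymphocytes were lower. Of 19 tested NK and cytotoxic genes 17 fell and 1 rose (median -1.37). Gzma, granzyme A, was at 34.7, 27, 28.8 and 27.8 CPM in control and at 9.44, 7.72, 7.19, 6.71 and 9.56 CPM in WT bleomycin mice, a fall to -1.86 ± 0.14 (adjusted p = 2.48e-07). Ncr1, an activating receptor of NK cells, fell by 1.89 on the log2 scale. Klrg1, of effector lymphocytes, was the riser at 1.19 ± 0.28 and Klra8 the lowest at -2.01, although the Klra genes are near copies of each other. In the B cell list 11 of 12 fell and none rose (median -1.12), but only 3 members lay below the control range in every treated mouse. The median level over this list, in log2 CPM relative to the control mean, was -0.18 in treated mouse 4. That was above control mice 21 (-0.37) and 26 (-0.39). Without control mouse 3, 7 genes of the list fell, with a median of -0.72. Ms4a1 (CD20) was at -1.0 ± 0.36 (adjusted p = 0.032) with overlapping groups, and its call was lost without control mouse 3 or 24 or treated mouse 5, 4-B2 or 7. That call was also lost with DESeq2 on the 9 libraries (adjusted p = 0.0761) and in mice with lower-case labels (-0.78, adjusted p = 0.148). Pax5, the B lineage factor, was the lowest at -1.50 and Cr2, a complement receptor, the highest at -0.70 (adjusted p = 0.051).

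T cell genes were mixed, 4 of 20 up and 7 down (median -0.19, and -0.04 without control mouse 3, -0.30 without control mouse 26 and -0.37 in mice with lower-case labels). Foxp3, the factor of regulatory T cells, was at 2.56, 1.98, 1.92 and 1.61 CPM in control and at 9.63, 5.56, 5.56, 6.51 and 6.54 CPM in treated mice (1.74 ± 0.24, adjusted p = 4.11e-05). On the TPM scale its mean was 1.88 and 3.23. Pdcd1, the inhibitory receptor PD-1, was highest at 2.99 ± 0.36 and Cd8a, of cytotoxic T cells, lowest at -1.13, while Cd3e, which all T cells carry, did not pass the test (-0.43 ± 0.20, adjusted p = 0.0891) and was at -0.68 (adjusted p = 0.0309) in mice with lower-case labels. Plasma cell genes rose in 2 of 8 tested cases and fell in 1 (median 0.17, and 0.05 without treated mouse 4 or 7 and 0.29 without treated mouse 5), and 2 fell without treated mouse 4. Jchain, which joins secreted immunoglobulins, was at 18.5, 20.7, 13.6 and 19.5 CPM in control and at 107, 32.9, 28.2, 136 and 283 CPM in treated mice (2.70 ± 0.63), and the treated mice differed widely among themselves. Mzb1, a chaperone of immunoglobulin, did not pass the test (adjusted p = 0.224), and Prdm1 was the lowest at -0.64. Dendritic cell genes rose in 9 of 15 cases and fell in 3 (median 0.69). Flt3, the receptor of the dendritic cell growth factor, was at 0.69 ± 0.14, Ccr7, the receptor for migration to lymph nodes, at -0.54 ± 0.13, Fscn1, fascin, highest at 2.42 and Clec9a, of cross-presenting dendritic cells, lowest at -1.14.

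Neutrophil genes differed widely among the controls. Of 13 tested genes, among 19 listed, 7 fell and 2 rose (median -0.76). S100a8, a calcium-binding protein abundant in neutrophils, was at 120, 22.5, 20.8 and 115 CPM in control and at 26.4, 15.1, 11.4, 18.5 and 21.7 CPM in WT bleomycin mice. Control mice 3 and 26 stood far above the other controls, which overlapped with the treated mice. Csf3r, the receptor of granulocyte colony-stimulating factor, showed the same split, at 201, 59, 51.7 and 170 CPM against 44, 27.6, 27, 26.6 and 36.9 CPM (-1.89 ± 0.37, adjusted p = 0.000658). In the 6 mice with lower-case labels 4 genes fell, the median was -0.40, and S100a8, at -1.62 there and -1.90 over all mice, did not pass the test (adjusted p = 0.0569). Lcn2, lipocalin 2, which injured epithelium also makes, was highest at 2.21 ± 0.14 and Ngp lowest at -2.36. Mast cell, basophil and eosinophil genes were mostly too low to test: 7 of 12 passed the filter, none rose and 3 fell, and that count was 1 without any of 4 mice (controls 3 and 24, treated 5 and 4-B2). Cpa3, of mast cells, was between 1.32 and 8.26 CPM in control and between 1.59 and 4 CPM in treated mice (adjusted p = 0.642), Prg2, of eosinophils, was highest at 0.41 ± 0.64 and Cyp11a1 lowest at -2.15.

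**Figure D4:**
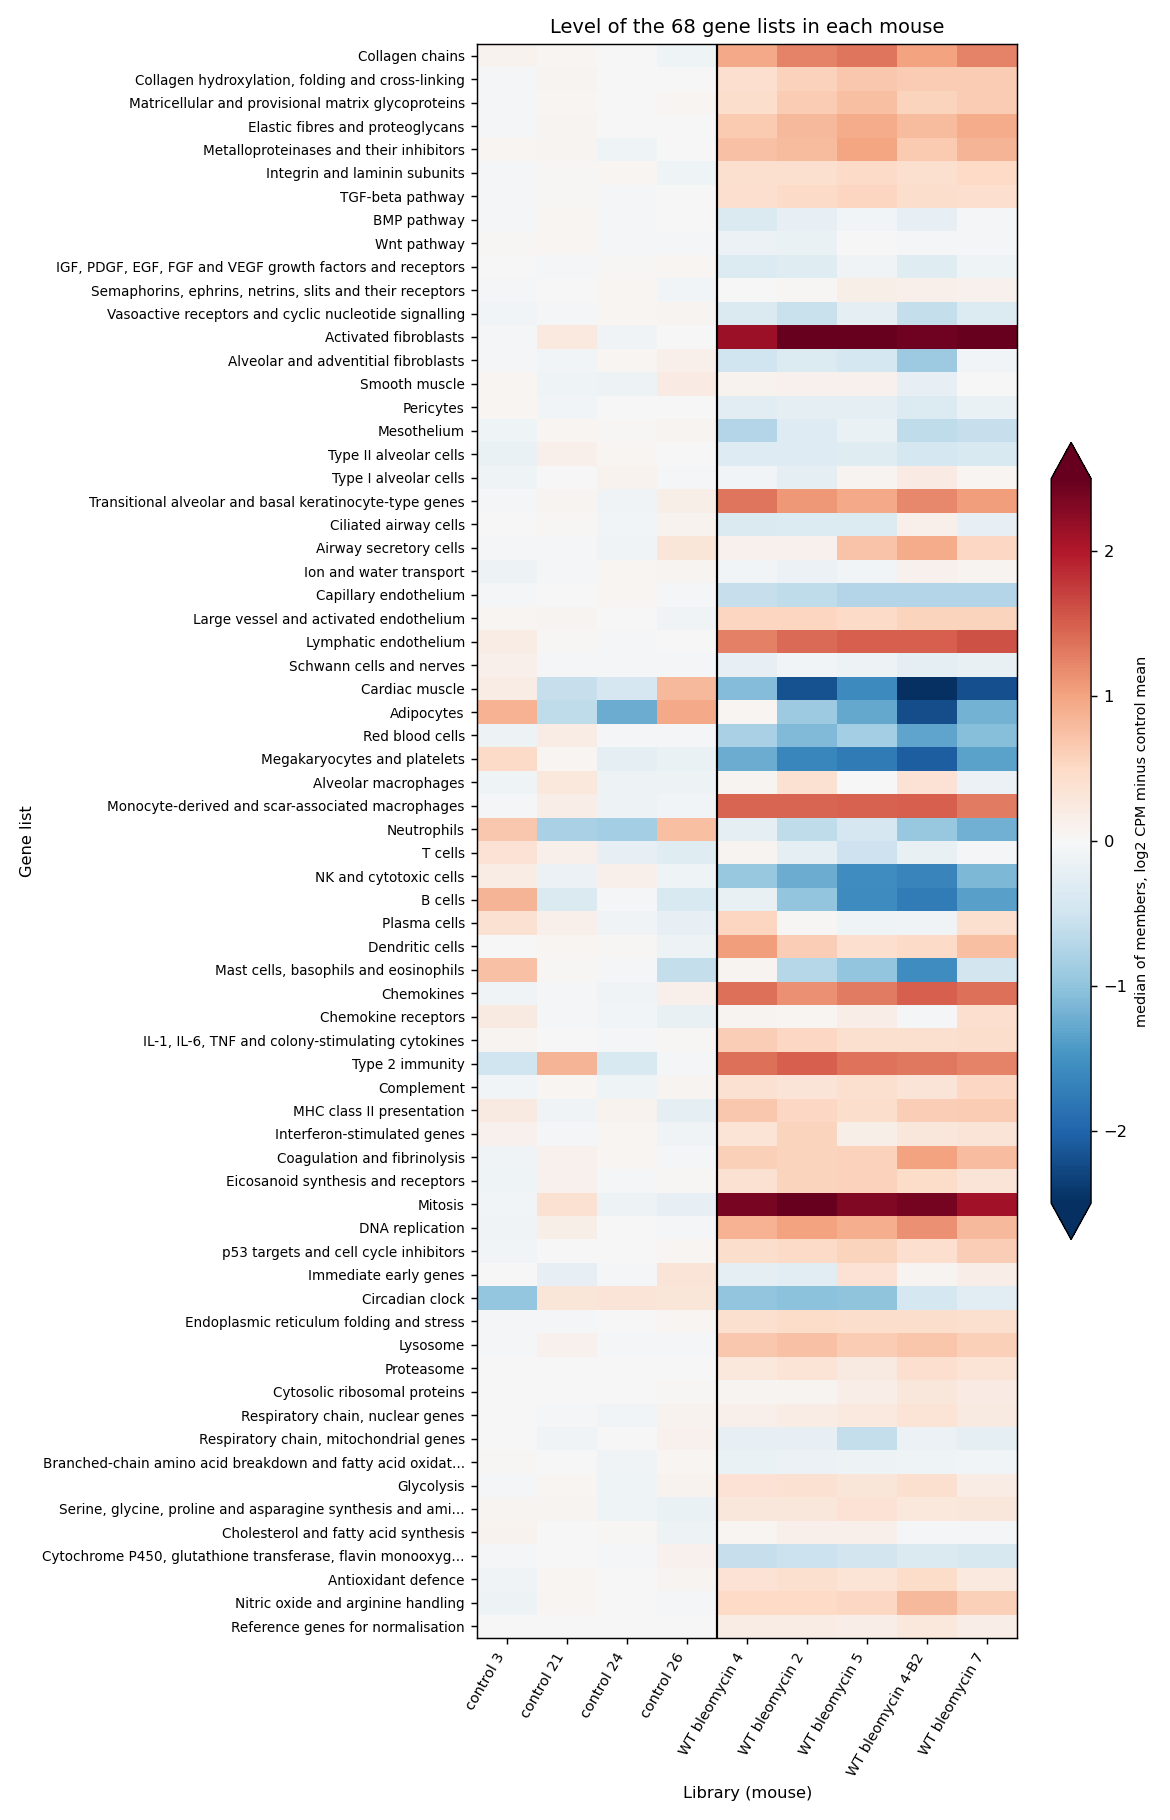
Each cell is the median over the tested members of a list (rows) of log2 CPM minus the control mean, in each mouse (columns; the line divides 4 control from 5 WT bleomycin mice), red above and blue below the control mean. Activated fibroblast genes read 2.14 to 2.77 in the treated mice, circadian genes read -0.97 in control mouse 3 against 0.32 at most in the other controls, and cardiac, adipocyte and neutrophil rows differ among the controls.

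Chemokines, which attract leukocytes, rose in 23 of 35 tested cases and fell in 3 (median 1.31). Ccl2, which draws monocytes, was at 0.654, 0.781, 0.576 and 1.48 CPM in control and at 9.69, 8.83, 8.56, 11.1 and 10.9 CPM in treated mice (3.48 ± 0.35). Cx3cl1, fractalkine, which is bound to endothelium, fell from 64.8 to 80.8 CPM to 38.2 to 42.8 CPM (-0.81 ± 0.10). Ccl8, another monocyte attractant, was highest at 3.78 and Ccl27a, of epithelia, lowest at -0.94. Their receptors were split, 9 of 23 up and 6 down, with a median of -0.02 that was 0.04 without control mouse 3. Ccr2, the receptor of Ccl2, rose from 33.4 to 92.8 CPM to 109 to 131 CPM (1.12 ± 0.22), Cxcr2, of neutrophils, fell to -1.86 ± 0.39 with control mice 3 and 26 above the rest, and Ackr4, a chemokine scavenger, was the lowest at -3.01.

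Cytokines of the IL-1, IL-6, TNF and colony-stimulating families rose in 13 of 26 tested cases and fell in 3 (median 0.37). Il6 was at 0.951, 0.601, 1.02 and 2.9 CPM in control and at 6.08, 7.41, 6.44, 6.78 and 8.27 CPM in WT bleomycin mice (2.36 ± 0.34, adjusted p = 6.5e-05). Il1b was at 63.2, 17.8, 13.6 and 32.2 CPM and at 34.1, 31.1, 24.6, 27.6 and 28.3 CPM, and did not pass the test (-0.12 ± 0.32, adjusted p = 0.773). It was 0.46 without control mouse 3. Lif, a cytokine of the IL-6 family, was highest at 3.25 ± 0.31 and its receptor gene Lifr lowest at -0.96. Type 2 immune genes, those of the response to parasites, allergens and tissue repair, rose in 11 of 15 tested cases and fell in 1 (median 1.23). Retnla was at 26.5, 159, 17.9 and 32.2 CPM in control and at 396, 782, 976, 1033 and 737 CPM in treated mice (3.74 ± 0.58), with mouse 21 apart from the other controls. Il13ra2, a decoy receptor of IL-13, was too low to test, at a TPM of at most 0.562, and the transcription factor gene Gata3 was lowest at -1.15.

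Complement genes rose in 14 of 26 tested cases and fell in 4 (median 0.31): C3, the central component, rose by 0.58 ± 0.11, the receptor C3ar1 from 5.28 to 11.1 CPM to 24.7 to 47.9 CPM (2.30 ± 0.24), C1qb, of the macrophage-derived C1q complex, was highest at 2.98 ± 0.16 and Cfd, factor D, lowest at -1.02 (adjusted p = 0.14). MHC class II genes rose in 6 of 10 cases and fell in 1 (median 0.59). H2-Aa, a class II chain, rose from 423 to 538 CPM to 660 to 901 CPM (0.65 ± 0.12), the regulator gene Ciita did not pass the test (0.23 ± 0.15), and Ctss, the protease that prepares class II molecules, was highest at 2.18 ± 0.12 while H2-Ob, which is largely made by B cells, was lowest at -1.22. Coagulation and fibrinolysis genes rose in 13 of 21 tested cases and fell in 2 (median 0.69), with Thbd, the endothelial thrombomodulin, lowest, from 815, 1127, 1141 and 1149 CPM to 611, 495, 600, 528 and 501 CPM (-0.95 ± 0.11). F13a1, a factor XIII chain, did not pass the test (0.34 ± 0.22, adjusted p = 0.215) and Tfpi2 was highest at 2.45. Of 17 tested eicosanoid genes 9 rose and 3 fell (median 0.47), from Tbxas1, thromboxane synthase, at 1.80 ± 0.11 to Hpgd, which inactivates prostaglandins, at -1.67 ± 0.18. Ptgis, prostacyclin synthase, was at -0.38 ± 0.11, and Alox15 had no stable sign (-0.02 ± 0.32, adjusted p = 0.963).

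Interferon-stimulated genes rose in 19 of 35 tested cases and fell in 2 (median 0.34). Isg15, a ubiquitin-like protein that interferon induces, was at 8.14, 7.75, 6.47 and 5.48 CPM in control and at 20.5, 30.5, 20.1, 22.1 and 24.2 CPM in treated mice (1.75 ± 0.17, adjusted p = 1.59e-06). Cxcl10, a chemokine, was highest at 3.60 ± 0.28 and Gbp2, a guanylate binding protein, lowest at -0.42. Interferon-responsive promoters are known for the interferon-stimulated response element, whose core letters, GAAANNGAA on either strand (N, any base), stood in 51.6% of the 31 promoters of 28 listed genes that RefSeq's GRCm38.p6 table holds, and in 7.13% of all 32851 promoters, in windows of 250 bases before the start. The window of Isg15, chr4:156200819-156201068, minus strand, is printed 5′ to 3′ up to the start site because it holds 3 overlapping matches, which begin 78, 72 and 66 bases before the start and are in capitals. No data here show which promoters were bound.
Isg15: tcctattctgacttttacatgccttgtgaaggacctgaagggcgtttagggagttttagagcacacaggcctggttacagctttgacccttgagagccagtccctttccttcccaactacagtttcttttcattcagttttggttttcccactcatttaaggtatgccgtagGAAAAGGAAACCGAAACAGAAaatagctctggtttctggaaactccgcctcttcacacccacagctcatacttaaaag

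Cell division genes rose together. Of 35 mitosis genes 34 rose, all without overlap between the groups, and none fell (median 2.34). Mki67, the proliferation marker Ki-67, was at 14.4, 21.5, 14.6 and 16.4 CPM in control and at 111, 115, 110, 102 and 80 CPM in treated mice (2.63 ± 0.24, adjusted p = 1.15e-06). Ccnb1, cyclin B1, which drives entry into mitosis, had the largest change in the list, from 1.22 to 3.36 CPM to 14.7 to 27.1 CPM (3.27 ± 0.37). The remaining gene was Pttg1, securin, at 40.8, 4.15, 38.4 and 38.9 CPM in control and at 20.6 to 23.7 CPM in treated mice (adjusted p = 0.386). Its level in control mouse 21 was far below the other controls, and without that mouse 1 member of the list was called lower.

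DNA replication genes rose in 35 of 39 cases and fell in none (median 0.91). Mcm2, of the replicative helicase, rose from 20.7 to 25.7 CPM to 39.4 to 51.3 CPM (0.97 ± 0.13), and Rrm2, of ribonucleotide reductase, from 4.58 to 8.35 CPM to 23.9 to 31.9 CPM (2.20 ± 0.25). Uhrf1, which keeps DNA methylation through replication, was highest at 2.26 and Pola2, of the primase complex, lowest at -0.05 (adjusted p = 0.765). Control mouse 21 held the highest control level of Mki67, Ccnb1, Mcm2 and Rrm2, and treated mouse 7 the lowest treated level of Mki67, Ccnb1 and Mcm2.

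Promoters of G2 and M phase genes are known for CCAAT boxes (CCAAT) and for the cell cycle homology region (CHR, TTTGAA or TTTAAA), while those of S phase genes are known for E2F sites. In the 250 bases before the start, at least 2 CCAAT boxes stood in 51.6% of 31 promoters of 29 mitosis genes, in 25.7% of 35 promoters of 30 replication genes and in 10.1% of all promoters, counted on both strands. Either CHR form stood in 51.6%, 20% and 25.2% of these. Any of the E2F letters TTTCCCGC, TTTGGCGC or TTTCGCGC stood in 3.23%, 25.7% and 1.53%. The windows of Ccnb1 and Mki67 are printed because they hold both kinds of letters of the mitosis list, in capitals: chr13:100786487-100786736 and chr7:135716380-135716629, both on the minus strand of GRCm38.p6. Boxes begin 99 and 67 bases before the start of Ccnb1 and 188, 166 and 141 bases before that of Mki67, the second of the latter reading on the opposite strand, and CHR letters follow at 42 bases in Ccnb1 and at 116 and 98 bases in Mki67. The matches are letters only. The windows of Mcm2 and Rrm2 held none of the E2F letters searched.
Ccnb1: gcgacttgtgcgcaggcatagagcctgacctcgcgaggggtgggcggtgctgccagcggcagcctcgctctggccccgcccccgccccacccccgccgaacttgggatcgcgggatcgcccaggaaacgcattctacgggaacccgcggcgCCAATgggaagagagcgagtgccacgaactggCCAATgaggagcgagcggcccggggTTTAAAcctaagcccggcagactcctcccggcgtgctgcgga
Mki67: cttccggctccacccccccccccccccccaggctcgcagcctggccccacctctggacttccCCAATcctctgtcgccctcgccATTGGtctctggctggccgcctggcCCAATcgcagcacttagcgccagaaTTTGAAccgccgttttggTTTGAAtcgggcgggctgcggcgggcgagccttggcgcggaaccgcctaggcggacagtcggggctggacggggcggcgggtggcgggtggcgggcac

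**Figure D5:**
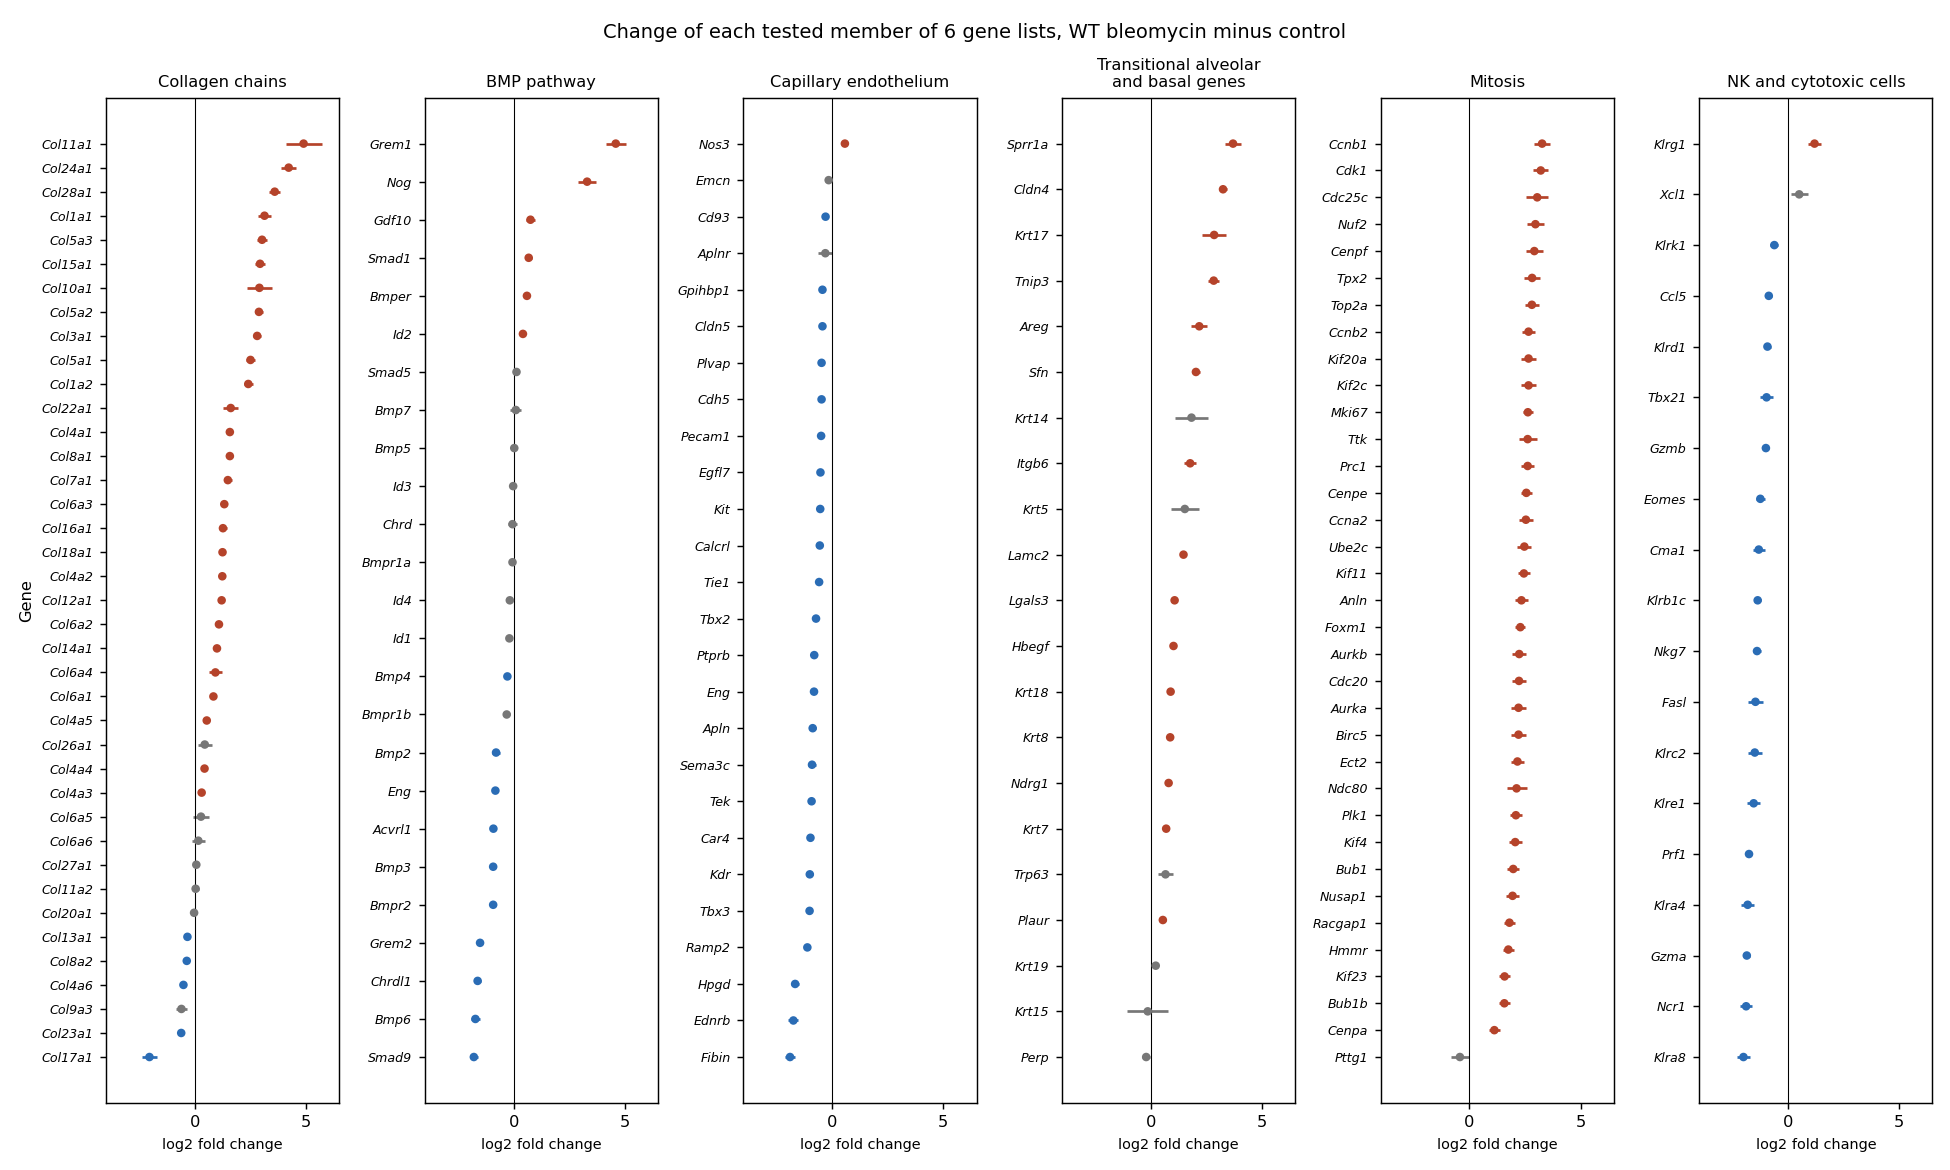
The log2 fold change (horizontal axis, WT bleomycin minus control) and its standard error for each tested member of 6 gene lists, ordered within each list, in red where called higher, blue where called lower and grey where not called. Mitosis genes sit above 0 except Pttg1 at -0.43, capillary genes below 0 except Nos3 at 0.57, and BMP genes run from Grem1 at 4.60 to Smad9 at -1.79.

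Genes that p53 induces and inhibitors of the cell cycle rose in 16 of 26 cases and fell in 2 (median 0.45). Cdkn1a, the p21 inhibitor, was at 48.7, 40.1, 40.5 and 85.2 CPM in control and at 267, 263, 304, 277 and 293 CPM in WT bleomycin mice (2.39 ± 0.18, adjusted p = 2.69e-07). Eda2r, a TNF receptor family member that p53 induces, rose from 2.02 to 2.94 CPM to 10.2 to 14.8 CPM (2.47 ± 0.16). Gdf15, a stress-induced cytokine, was highest at 3.03 and Sesn1, sestrin 1, lowest at -0.80. Immediate early genes were split, 6 of 21 up and 6 down (median 0.06, which took the other sign under 4 settings and was 0.24 without control mouse 26), and 2 fell in mice with lower-case labels. Fos was between 58 and 157 CPM in control and between 49.4 and 168 CPM in treated mice (adjusted p = 0.751), Junb was at 0.88 ± 0.22 with overlapping groups, and Fosl1 was highest at 2.48 and Nr4a1 lowest at -0.92.

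Circadian clock genes fell in 13 of 19 cases and rose in 3 (median -0.80), but only 1 of those that fell did so without overlap. Dbp, a clock output gene, was at 61.3, 301, 254 and 164 CPM in control and at 40, 33.5, 50.1, 67.1 and 62.4 CPM in treated mice (-1.95 ± 0.39, adjusted p = 0.000842). Control mouse 3 was apart from the other controls and within the treated range. Arntl, the core activator BMAL1, ran the opposite way, at 26.9, 4.69, 5.38 and 3.16 CPM in control against 14.3, 18.2, 13.6, 7.41 and 7.84 CPM in treated mice (0.29 ± 0.50, adjusted p = 0.661), and at 1.48 (adjusted p = 0.00134) without control mouse 3. Without that mouse 14 genes fell and 5 rose (median -1.07). Nfil3, a repressor opposing Dbp, was highest at 1.47 and Hlf, a relative of Dbp, lowest at -2.23. The hour of collection is not given in the sources used here, and its part in these values was not tested.

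Genes of protein folding, the lysosome and the proteasome rose. In the endoplasmic reticulum list 17 of 25 rose and 2 fell (median 0.45): Hspa5, the chaperone BiP, rose from 371 to 461 CPM to 568 to 682 CPM (0.60 ± 0.08), and Creb3l1, a factor that promotes collagen secretion, from 13.1 to 26.8 CPM to 31.4 to 39.7 CPM (0.98 ± 0.19). Sdf2l1 was highest at 1.34 and Herpud1 lowest at -1.03. Lysosomal genes rose in 34 of 38 cases, all without overlap, and none fell (median 0.68). Ctsd, cathepsin D, was at 608, 771, 581 and 645 CPM in control and at 1902, 2190, 1836, 1835 and 1561 CPM in treated mice (1.52 ± 0.11). Ctsk, cathepsin K, which degrades collagen, rose by 2.10 ± 0.24, and Tfeb, a regulator of lysosome genes, was lowest at -0.14 (adjusted p = 0.133). Of 38 tested proteasome genes 31 rose and none fell (median 0.32), with Psmd1 at 0.36 ± 0.05, Psmd8 highest at 0.65 and Psmb10 lowest at -0.04, short of the threshold. The immunoproteasome gene Psmb8 (0.29 ± 0.11, adjusted p = 0.0458) lost its call in 7 of the 9 fits that left out a mouse, all but those without control mouse 3 or treated mouse 5. It also lost the call with no count filter, upper-quartile scaling, label spelling as a term or lower-case labels only.

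Genes of ribosomes and respiration moved by little. Ribosomal protein genes rose in 29 of 81 tested cases and fell in 2 (median 0.14), and in 10 cases among mice with lower-case labels. Rpl3 (0.11 ± 0.07) and Rps3 (0.18 ± 0.11) did not pass the test, Rps27l was highest at 0.87 and Rpl3l, of striated muscle, lowest at -1.79. In fits of the 9 libraries alone Rps3 did pass (edgeR adjusted p = 0.0429, DESeq2 adjusted p = 0.0284). Nuclear genes of the respiratory chain rose in 37 of 78 cases and fell in 3 (median 0.21), 23 of them rising among mice with lower-case labels. Sdha, of complex II, was at -0.22 ± 0.05 and, in those mice, at -0.16 (adjusted p = 0.0756), Cox4i1, of complex IV, did not pass the test (0.18 ± 0.09, adjusted p = 0.119), Uqcrq was highest at 0.59 and Ndufb10 lowest at -0.23. Of the 13 mitochondrially encoded genes none rose and 1 fell (median -0.31, and -0.18 without treated mouse 5). Neither mt-Co1 (-0.18 ± 0.15) nor mt-Nd1 (-0.21 ± 0.17) passed the test, and the ends were mt-Co3 at -0.13 and mt-Nd2 at -0.65. With DESeq2 on the 9 libraries alone mt-Co1 (adjusted p = 0.026) and mt-Nd1 (adjusted p = 0.0421) did pass. The share of estimated counts in mitochondrially encoded genes was 3.28% ± 0.169 (SD, n = 4) in control and 2.70% ± 0.315 (SD, n = 5) in treated libraries (exact permutation test, adjusted p = 0.0238), with 2.15% in mouse 5.

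Glycolytic genes leaned up, while catabolic genes were called less often than genes at large. Of 36 genes for the breakdown of branched-chain amino acids and fatty acids 12 fell and 3 rose (median -0.15), and 1 rose without control mouse 24 or 26 or treated mouse 5. Called members made up 41.7% of that list, against 48.9% of all genes tested, of which 23.9% fell and 25.0% rose. Aldh6a1, of valine breakdown, was at 113, 112, 118 and 127 CPM in control and at 59.3, 56.1, 55.8, 59.2 and 64.9 CPM in treated mice (-0.99 ± 0.08, adjusted p = 4.34e-07), the lowest of the list. Acadm, which oxidises medium-chain fatty acids, was at -0.53 ± 0.08, and Slc25a20 was highest at 0.30. Glycolysis genes rose in 11 of 21 cases and fell in 3 (median 0.24). Ldha, lactate dehydrogenase, rose from 199 to 236 CPM to 358 to 390 CPM (0.75 ± 0.07), Eno1, enolase, was highest at 0.83 and Pfkfb3 lowest at -0.66. Hk2, hexokinase 2, was called at 0.34 ± 0.13 (adjusted p = 0.0407), but not without control mouse 3, 21 or 24 or treated mouse 5 or 4-B2. Nor was Hk2 called in fits of the 9 libraries alone (edgeR adjusted p = 0.062, DESeq2 adjusted p = 0.0516). Synthesis and uptake of serine, glycine, proline and asparagine, amino acids rich in collagen or linked to them, rose in 9 of 18 genes and fell in 1 (median 0.32). Aldh18a1, which starts proline synthesis, was between 14.1 and 18.1 CPM in control and between 30.4 and 38.7 CPM after bleomycin (1.09 ± 0.12), Shmt2, of mitochondrial glycine synthesis, was at 0.40 ± 0.09, the cystine transporter Slc7a11 was highest at 2.08 and Slc1a5 lowest at -0.50.

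Lipid synthesis genes were split, 6 of 28 up and 7 down (median 0.08). Hmgcs1, of the cholesterol pathway (0.19 ± 0.10), and Fasn, fatty acid synthase (-0.12 ± 0.14, and 0.05 without control mouse 3), did not pass the test, Scd1, a desaturase, was highest at 1.21 and Dgat2, which completes triglycerides, lowest at -1.47. Detoxifying enzymes of the cytochrome P450, glutathione transferase, flavin monooxygenase and aldehyde oxidation families fell in 41 of 73 tested cases and rose in 7 (median -0.46). Of the 120 genes listed, 47 did not pass the count filter. Fmo2, the main flavin monooxygenase of the lung, was at 935, 1760, 1950 and 2416 CPM in control and at 346, 348, 423, 521 and 930 CPM in treated mice (-1.78 ± 0.33), with the highest treated mouse just under the lowest control. Cyp1a1, which oxidises aromatic hydrocarbons, was the lowest at -2.66 ± 0.72, and Gsta1 the highest at 2.41 ± 1.13 (adjusted p = 0.0896).

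Antioxidant genes rose in 15 of 25 cases and fell in 3 (median 0.35). Hmox1, haem oxygenase 1, was at 30.3, 36.2, 29.1 and 34.1 CPM in control and at 60.1, 196, 92.2, 66.3 and 71 CPM in treated mice (1.58 ± 0.29), mouse 2 standing apart. Sod3, extracellular superoxide dismutase, did not pass the test (-0.06 ± 0.07, adjusted p = 0.491), the metallothionein gene Mt2 was highest at 2.99 and Cat, catalase, lowest at -0.96. Genes for nitric oxide and arginine rose in 7 of 12 cases and fell in none (median 0.60), from Nos2, the inducible synthase, at 2.01 ± 0.26 and 12.8 to 26.5 CPM in treated mice, to Asl at 0.17 (adjusted p = 0.12).

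The remaining genes with the largest folds lay mostly outside the lists. Chl1, a neural adhesion molecule, was at 0.891, 2.34, 0.256 and 0.902 CPM in control and at 34.7, 45, 35.1, 35.6 and 70.4 CPM in WT bleomycin mice (5.31 ± 0.48). Adamts4, an aggrecan-cutting protease, rose from 0.832 to 1.31 CPM to 28.4 to 40.6 CPM (4.93 ± 0.30), and Saa3, an acute phase protein, from 1.47 to 2.64 CPM to 26.8 to 60.2 CPM (4.36 ± 0.37). Gm10800, a predicted gene, rose by 4.88 ± 0.38, although its sequence resembles repeats and its reads may come from other loci. Of those that fell, Colq, the collagen-tailed anchor of acetylcholinesterase, was at 57.1, 39.7, 37.9 and 26.4 CPM in control and at 5, 2.66, 4.56, 2.49 and 4.01 CPM in treated mice (-3.42 ± 0.33). Bex2 was at 23.4 to 30.9 CPM and 2.28 to 3.75 CPM (-3.19 ± 0.17, adjusted p = 2.37e-08), Ankrd63 at 27.4 to 40.1 CPM and 1.87 to 6.92 CPM (-3.0 ± 0.33), Cst8 at -3.22 ± 0.35, and Hamp, which encodes the iron hormone hepcidin, at -2.59 ± 0.42.

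Genes often used to normalise expression were themselves changed in part: of 18 such genes 10 rose and 3 fell (median 0.21), and 6 rose in mice with lower-case labels. Gapdh, a glycolytic enzyme, was at 347, 380, 316 and 384 CPM in control and at 575, 613, 615, 697 and 593 CPM in treated mice (0.79 ± 0.17, adjusted p = 0.0014). Actb, beta actin, rose by 0.28 ± 0.07, Gusb, a lysosomal enzyme, was highest at 1.04 and Tbp, the TATA-binding protein, lowest at -0.37 ± 0.10. On the TPM scale the fall of Tbp did not pass the test (adjusted p = 0.252 with a pseudocount of 1).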

How the data were processed

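Lung RNA was sequenced by the authors from poly(A)-selected libraries. They quantified it with kallisto (version not given in the sources used here) against Ensembl mouse transcripts (GRCm39 per the labels), summed protein-coding transcripts per gene, and deposited estimated counts and TPM. Fractional values made up 70.2% of the counts, which were rounded here. The deposited TPM columns sum to 821763 to 854358. The deposited single-sample files hold both values and, in 13 of 13 cases, equal the series tables, which were used. 1 TPM column matches no sample and was not used. The authors' own tests, with DESeq2, were not used.

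Genes were filtered with filterByExpr, scaled by TMM and tested with edgeR's quasi-likelihood test (edgeR 4.0.16, R 4.3.3) on 13 libraries in 3 groups, with Benjamini-Hochberg adjustment over 15315 genes at 0.05. Standard errors are the log2 fold change divided by the root of F. On simulated counts over 15315 genes, 83 of 100 genes changed by 1 on the log2 scale and 45 of 100 changed by 0.5 were recovered, with 3 calls among unchanged genes. No other gene was changed there, whereas 7492 were called in the data. The adjustment therefore worked at another cut-off, and these shares do not describe the reported fit. Alternatives used limma 3.58.1 on log2 TPM with a pseudocount of 1 or 0.1, and DESeq2 1.42.0 on the 13 or the 9 libraries. Further ones were edgeR on the 9 libraries, other filters and scalings, the label spelling, and each library left out. Library values were compared by exact permutation tests (scipy 1.17.1). Levels are CPM, with a prior count of 2 for log2 CPM.

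Named genes were the chosen representatives of each of 68 gene lists and the list ends, the 10 largest folds each way among called genes whose groups do not overlap at a mean TPM of at least 10, and the 8 largest TPM differences each way, mitochondrial genes left out. A few genes that these rules name are not reported here. The comparison and the lists were chosen with earlier results of these data known, and 102 genes stand in more than 1 list. Of the 1635 distinct listed genes tested, 67.1% were called (701 higher, 396 lower), against 48.9% of all genes tested. The labels do not say that the replicates are separate mice, so p-values measure the spread between these libraries, some of which may be technical. Promoters came from RefSeq (GRCm38.p6) and were matched by symbol, without coordinates of the build of the files.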

Additional observations from a re-analysis of the deposited data

Results flagged for a closer look

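Of 456 groups of 4 or 5 values looked at, 36 held a highest or lowest sample far from the others by Dixon's criterion, where chance alone gives about 1 in 20, or 23. None is explained here.

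Control mouse 3 was the lowest control for Sftpc (10352 CPM), Cbr2 (2349 CPM), Thbd (815 CPM) and Ptgis (99.5 CPM), and the highest for Arntl (26.9 CPM), Fasn (850 CPM) and Mzb1 (7.37 CPM). Its median over circadian genes was -0.97, and over Schwann cell genes 0.12, in log2 CPM relative to the control mean. Control mouse 21 was the highest control for Mmp12 (40.7 CPM), Timp1 (9.73 CPM), Retnla (159 CPM), Ctsk (51.4 CPM) and Chil4 (1.92 CPM), and for the medians of alveolar macrophage (0.27) and lysosome genes (0.11). Control mouse 26 was the highest for Aqp1 (1000 CPM), Cst8 (5.67 CPM) and the median of airway secretory genes (0.3), and the lowest for Hmgcs1 (85.2 CPM).

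Among treated mice, mouse 4 was the lowest for P4ha3 (16.6 CPM) and the highest for Foxp3 (9.63 CPM). Mouse 2 was the highest for Marco (64.9 CPM) and Hmox1 (196 CPM). Mouse 5 was the lowest for the medians of large vessel (0.47) and mitochondrially encoded genes (-0.59) and for the mitochondrial share of counts (2.15%), and the highest for serine, glycine, proline and asparagine genes (0.36). Mouse 4-B2 was the lowest for Itga8 (118 CPM), Acvrl1 (411 CPM) and Myh11 (110 CPM) and the highest for Dnah5 (54.1 CPM) and Cyp1a1 (5.12 CPM). Mouse 7 was the highest for Chl1 (70.4 CPM) and Hamp (1.36 CPM) and the lowest for the median of monocyte-derived macrophage genes (1.29).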

How the results depend on the processing

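Over 20 alternatives the number of called genes stayed within 1.5 times 7492, and leaving out 1 mouse gave 6656 to 7154 (3422 to 3712 higher, 3234 to 3474 lower, 1672 to 1823 at least 2-fold). The fewest calls, 5701 (3020 higher, 2681 lower), came with lower-case labels only, where 5498 of the 7492 genes were called again. That fit held fewer libraries, and the part of the label spelling was not tested. Genes called with at least a 2-fold change numbered 1091 with limma on log2 TPM + 1 and 1645 with limma on log2 TPM + 0.1. The unit, the test and the pseudocount differ there from the reported fit, and the cause was not tested. No called gene took the opposite sign, except 25 and 24 with limma on log2 TPM + 1 and + 0.1. Among 157 named genes tested, none of the 124 called reversed. 8 that were not called did: Lyve1 was -0.22 with label spelling as a term, -0.39 in lower-case labels only and -0.2 to 0.18 with 1 mouse left out; Il1b was 0.15 and 0.16 with limma (+ 1 and + 0.1) and -0.37 to 0.46 with 1 mouse left out; Alox15 was 0.01 with limma at either pseudocount, 0.27 in lower-case labels only and -0.23 to 0.22; Cpa3 was 0.05 with limma (+ 0.1) and -0.55 to 0.52. With 1 mouse left out Wt1 ran from -0.24 to 0.03, Fos from -0.09 to 0.48, Arntl from -0.02 to 1.48 and Fasn from -0.17 to 0.05. The cause of these shifts was not tested. Of named genes under an alternative, 38 calls were lost and 24 gained. List medians changed sign 24 times, in 7 lists with medians near 0. In the MHC class II, interferon, coagulation, endoplasmic reticulum, lysosome, ribosomal and mitochondrial lists, the small count of genes called lower moved by 1 without some mice.

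Leaving out 1 mouse, chosen after seeing the data, the difference in genes at a TPM of at least 1 was 128 to 177, that in the share of the 100 most abundant genes -6.16 to -5.6 percentage points and that in the mitochondrial share -0.648 to -0.441. Several of these missed the adjusted threshold, and the smallest p was then 0.0357 (3 against 5) or 0.0286 (4 against 4). No paired analysis was possible because control and WT bleomycin mice share no replicate number. Low genes limit precision: the median standard error was 0.28 in the lowest of 4 bins by mean CPM.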

Other observations

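The second principal component carried 7.86% of the variance and had both groups on either side of 0. The 3 libraries with capitals in their labels were the lowest on it, at -17.4 (control 26), -20.0 (4-B2) and -12 (7), and the 6 with lower-case labels ran from -10.8 (control 24) to 29.8 (control 3). Of the 7492 called genes, 6395 belonged to none of the 68 lists.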
